A study of Mus musculus with 15 samples.

Results

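Transcript levels were compared between 4 arrays of LSZ2 cells carrying a hairpin against Siva and 3 arrays of LSZ2 cells carrying a control hairpin. LSZ2 is a mouse non-small cell lung cancer line. These 7 arrays are all those whose label names LSZ2, out of 15 in the series, and the other 8 come from a second lung cancer line, LSZ4. The study concerns the role of the p53 target gene Siva in tumour formation. Short hairpin RNAs were delivered by virus made in 293T cells, a human packaging line. The Siva arm held shSiva1 (2 arrays) and shSiva2 (2 arrays), both in the vector pLKO TRC2.0. The control arm held shGFP in pLKO.1 (1 array) and shLacZ in LL37 (2 arrays), which are directed at genes a mouse cell does not carry. All cells except those with shLacZ were selected in puromycin for 3 days, and RNA was taken 2 days after plating, from cells growing in DMEM with serum. LSZ2 is a single line, and the labels do not say that the arrays of a hairpin came from separate cultures, so that p-values cover the spread between these arrays alone, which may be technical.

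Siva1 encodes a small zinc-binding protein first found as a partner of the receptor CD27, and its gene is switched on by p53. It is best known for promoting apoptosis, and it also binds Arf and Mdm2 and so touches the pathway that controls p53 itself. A short hairpin RNA is cut by the cell into a small RNA that guides the destruction of matching transcripts, and 2 hairpins against different stretches of a transcript share the target but not their other matches.

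Each value below is the log2 of the array signal less the 75th percentile of its array, so that 0 is the signal of a transcript at that percentile. A difference between groups is a log2 fold change, Siva hairpins minus controls unless another order is named, with the standard error (SE) of a limma fit over all 22602 genes tested. A gene was called where its Benjamini-Hochberg adjusted p was under 0.05. On the 7 arrays that percentile was 665 to 871 intensity units, 53.4% to 60.6% of spots were called well above background by the scanner software, and 0 were saturated. All Siva arrays lay on 1 slide and all controls on the other, and the vector differed in the same way, so that slide, vector and Siva hairpin cannot be told apart. On each slide the row of the array followed the hairpin too, with shSiva1 and shGFP in row 1 and shSiva2 and shLacZ in row 2. Of the 6 epithelial markers (such as Epcam, Cdh1 and Krt8) 6 were well above background on all 7 arrays, and the log2 of their summed signal was 10.38 to 10.65 in Siva arrays and 10.36 to 10.67 in controls. Of 33 alveolar and airway genes 17 were on all 7 arrays, with a log2 sum of 8.51 to 8.85 in Siva arrays and 8.39 to 8.61 in controls. Aqp5, the brightest of them (mean 7.96 in Siva arrays and 7.63 in controls), weighs most in that sum. Abca3, Lamp3, Aqp5 and Sftpd were among these 17, while Nkx2-1, Sftpc, Scgb3a2 and Foxj1, which define lung lineages, were above background on none. In bulk RNA, fewer cells of a kind and less RNA per cell cannot be told apart.

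Siva1 itself was lower with both hairpins and lower with shSiva1 than with shSiva2. The array probe used in the fit shows which part of the transcript was read. It lies at mm9 chr12:113885242-113886093, on the plus strand that RefSeq gives the gene, and its 60 bases are spread over more than 60 bases of genome. It is printed because the check of the knockdown rests on it.
Siva1 probe: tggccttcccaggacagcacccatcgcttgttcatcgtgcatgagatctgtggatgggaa
With this probe Siva1 read 2.98 and 3.29 with shSiva1 and 3.83 and 3.72 with shSiva2, against 5.53 with shGFP and 5.52 and 5.83 with shLacZ. All 4 Siva arrays lay below all 3 controls, and the shSiva1 arrays were the lowest. The mean was 3.46 ± 0.39 (SD, n = 4) with Siva hairpins and 5.62 ± 0.18 (SD, n = 3) in controls, a difference of -2.17 (SE 0.23, adjusted p = 0.0045). That left 22.3% of the control signal, 17.8% with shSiva1 and 27.8% with shSiva2, and the difference between the hairpins passed the test (0.64 on the log2 scale, adjusted p = 0.044). The other Siva1 probe read 2.997, 3.29, 3.73 and 3.70 in the Siva arrays, against 5.26, 5.32 and 5.61 in controls.

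**Figure D1:**
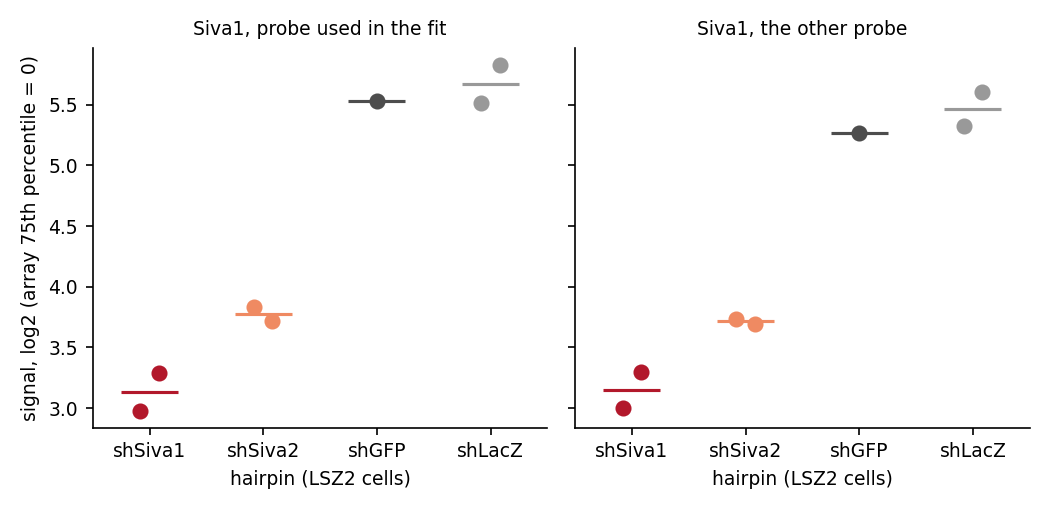
Siva1 signal on each LSZ2 array, as log2 with the 75th percentile of the array at 0, for the probe used in the fit (left) and the other probe (right). Points are arrays and bars are means per hairpin. With the fitted probe the 4 Siva arrays sit between 2.98 and 3.83 and the 3 controls between 5.52 and 5.83.

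Across the transcriptome, 754 genes were called, 424 higher (1.88% of the genes tested) and 330 lower (1.46%) with Siva hairpins, or 3.34% in all. Of these, 299 rose and 139 fell at least 2-fold, and the median change of all genes was -0.02. With arrays scaled on their median in place of the 75th percentile, the split was 454 higher and 189 lower. In every called gene the 4 Siva arrays lay wholly above or wholly below the 3 controls, and over all genes that was so for 9.27% (above) and 11% (below). The calls leaned on each control array. Without shGFP 167 genes were called, without shLacZ replicate 1 it was 105, and without shLacZ replicate 2 it was 180. Without shSiva2 replicate 2 the count was 446, and without shSiva1 replicate 2 it was 496. With 1 mean per hairpin, 2 against 2, limma called 0 genes, 2816 had an unadjusted p under 0.05, and Siva1 itself did not pass (-2.14).

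The variation between the arrays followed the hairpins. The first principal component over 22590 genes held 46.6% of the variance and set the shSiva1 arrays (56.9 and 74.5) apart from the other 5, which lay between -33.5 and -21.7. The second held 28.8% and separated the shSiva2 arrays (49.95 and 47.7) from the controls (-33.2 to -24.4). With shSiva1 alone 4715 genes were called against the controls (20.9%), 2379 higher (10.5%) and 2336 lower (10.3%), or 2734 and 1297 with median scaling. With shSiva2 alone it was 2478 (11%), 1208 higher (5.34%) and 1270 lower (5.62%), and these comparisons share their control arrays. The shSiva1 count was 2901 without shLacZ replicate 1, and without shSiva2 replicate 2 the shSiva2 count was 950. The fit behind these counts gives 1 spread per gene to all groups of the fit. The naming rule picked 85 genes other than Siva1 among those called in the pooled comparison. All kept their direction under every alternative in which they were tested. Leaving out arrays could not turn it, since their Siva arrays lay wholly above or wholly below the controls. Of the 85, 28 kept their call in each of the 7 fits that leave out 1 array. Some of these 28 were above background in 1 arm only, as named below. Without shGFP 39 of the 85 were still called, without shLacZ replicate 1 it was 28, without shLacZ replicate 2 it was 37, and without any 1 Siva array it was 68 to 70. At least 1 of the 7 fits lost the call of 57 of the 85, and every fit that of Gldc, Muc13 and Plod2. Itih5, Rbp7, Sgk2, Oasl1, Scd1, Atf3, Dusp4, Gaa and Npc1 lost theirs in 6 of the 7. Where a lost call is given below, the array named is the one whose absence gave the highest adjusted p. It need not be the only array whose absence lost the call.

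The largest rises joined genes of the matrix, lipid signalling, retinoid uptake and transcription. Timp3 encodes an inhibitor of matrix metalloproteinases, and its probe lies at mm9 chr10:85811696-85811755. Its signal was 1.44 and 1.85 with shSiva1 and 3.72 and 3.80 with shSiva2, against -3.04 with shGFP and -2.87 and -2.97 with shLacZ. Both hairpins were far above the controls and shSiva2 was the higher. The difference was 5.66 (SE 0.59, adjusted p = 0.0045). Stra6, the cell-surface receptor for retinol-binding protein (mm9 chr9:58001701-58001760), read -3.05 and -2.69 with shSiva1 and -1.98 and -1.74 with shSiva2, against -7.48 with shGFP and -7.11 and -6.87 with shLacZ. On no control array was it well above background, so that its rise is given as a bound, at least 7.40-fold (adjusted p = 0.00135). Such a bound is set against the dimmest probe that each dim array still measured. It is approximate, since a brighter probe can miss background. On shSiva2 replicate 1, S100b at -4.76 was not above background and Ivl at -4.92 was. Over the alternative settings the smallest fitted log2 changes were 1.67 for Stra6, 1.24 for Zfp185, 0.878 for Gata3 and -0.455 for Cyp2c29, smaller than their bounds. Ccn4, a matricellular protein of the Wnt pathway, was bounded in the same way at 7.48-fold (adjusted p = 0.0141), Cyp4v3, a fatty acid hydroxylase, at 7.41-fold (adjusted p = 0.0232) and Skap1, a signalling adaptor, at 6.29-fold (adjusted p = 0.00347).

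Sphk1 makes sphingosine 1-phosphate, a lipid signal, and its probe lies at mm9 chr11:116397908-116397967. It read 1.12 and 1.42 with shSiva1 and 1.61 and 1.75 with shSiva2, against -1.78 with shGFP and -1.61 and -1.53 with shLacZ. The Siva arrays were close together and far above the controls (3.11, SE 0.18, adjusted p = 0.00061). The protein tyrosine phosphatase gene Ptpn13 was as even, at -0.44, -0.42, -0.64 and -0.51 in the Siva arrays, against -3.04, -2.86 and -2.77 in controls (2.39, SE 0.13, adjusted p = 0.00061). Fam20a, which acts in tooth enamel formation, rose by 2.89 (SE 0.19, adjusted p = 0.00116) and Casc1 by 2.12 (SE 0.14, adjusted p = 0.00121). Zfp185, a cytoskeletal LIM protein, Bace2, a membrane protease related to the enzyme that cuts the amyloid precursor, and the transcription factor Gata3 were dim on all 3 controls. Their rises were therefore bounds, of at least 6.36-fold for Zfp185, 5.76-fold for Bace2 and 4.48-fold for Gata3 (adjusted p = 0.00061, 0.00485 and 0.00347). Pitpnm3, a membrane protein that binds phosphatidylinositol, rose by 4.05, the lipoprotein-associated phospholipase Pla2g7 by 3.35, Vasn, a surface protein that binds TGF-beta, by 3.19 and the transcription factor Ascl3 by 3.18. Pitpnm3 and Ascl3 were above background on 1 of the 3 controls and Pla2g7 on 2 of them. Ppm1h, a phosphatase, and Irgm2, an interferon-induced GTPase, were at least 2.43-fold and 3.88-fold higher (adjusted p = 0.0272 and 0.0451).

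Timp3, Sphk1, Ptpn13, Fam20a and Casc1 stayed called whichever array was left out. So did Stra6, Skap1, Zfp185, Bace2 and Gata3, but these were above background on all 4 Siva arrays and on no control. They passed the filter only through the arm where they were high, and their adjusted p sets signal against dim readings. Their kept calls therefore add no support. Without shLacZ replicate 1, Ccn4 (adjusted p = 0.0772), Pitpnm3 (3.83, adjusted p = 0.0627), Pla2g7 (3.17, adjusted p = 0.103) and Ascl3 (3.06, adjusted p = 0.0523) were no longer called. Without shGFP, Irgm2 (adjusted p = 0.179), Vasn (2.95, adjusted p = 0.119) and Ppm1h (adjusted p = 0.122) were lost, and without shLacZ replicate 2 it was Cyp4v3 (adjusted p = 0.0648).

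**Figure D2:**
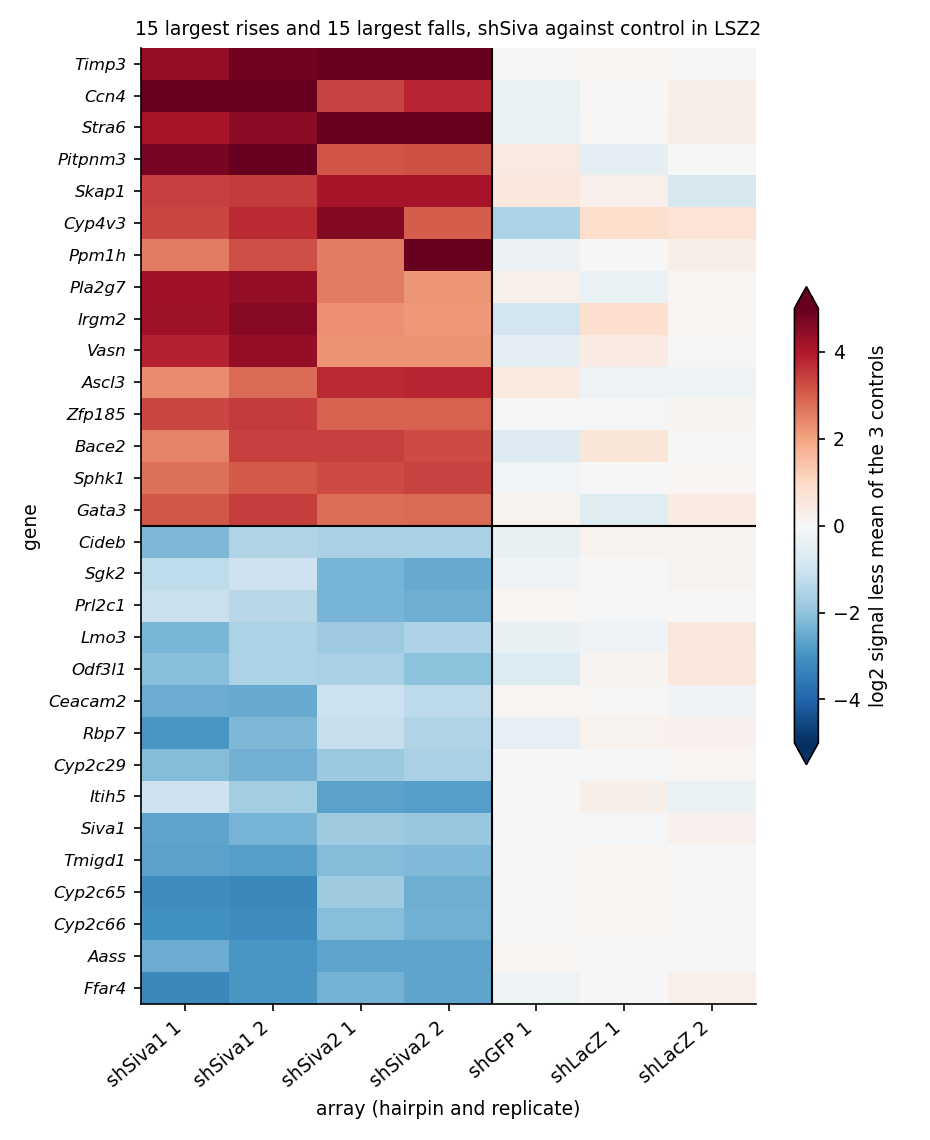
The 15 largest called rises and 15 largest called falls in LSZ2 for which both Siva hairpins moved the same way. Colour is the log2 signal of each array less the mean of the 3 controls, from -5 (blue) to 5 (red), with stronger values drawn at the ends of the scale. Siva arrays stand left of the line and controls right of it. Timp3 leads the rises at 5.66 and Ffar4 the falls at -2.78.

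Falls were smaller than rises and held several genes of gut epithelium and of small-molecule metabolism. Aass, the first enzyme of lysine breakdown (mm9 chr6:23022668-23022727), read -2.77 and -3.21 with shSiva1 and -2.94 and -2.91 with shSiva2, against -0.21 with shGFP and -0.26 and -0.40 with shLacZ. Every Siva array was far below every control, and the hairpins overlapped (-2.67, SE 0.15, adjusted p = 0.00061). Ffar4, which senses long-chain fatty acids at the cell surface (mm9 chr19:38188370-38188429), read -0.47, -0.14, 0.40 and 0.12 in the Siva arrays, against 2.49, 2.79 and 2.99 in controls (-2.78, SE 0.23, adjusted p = 0.00256). The cytochrome P450 genes Cyp2c66 and Cyp2c65, known from the intestine, changed by -2.67 (adjusted p = 0.0037) and -2.64 (adjusted p = 0.00892). Tmigd1, an adhesion protein of intestinal and kidney epithelium, read -0.93, -1.02, -0.44 and -0.48 in the Siva arrays, against 1.67, 1.82 and 1.69 in controls. Its Siva arrays lay in a narrow band below the controls (-2.45, SE 0.18, adjusted p = 0.00202).

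Cyp2c29, Odf3l1 and the transcriptional regulator Lmo3 were dim on all 4 Siva arrays, so that only bounds hold: at least 2.27-fold lower for Cyp2c29, 2.32-fold for Odf3l1 and 2.35-fold for Lmo3 (adjusted p = 0.004, 0.0203 and 0.0168). Itih5, which binds hyaluronan in the matrix, was above background on 1 of 4 Siva arrays and 2 of 3 controls, and its fitted change of -2.05 rests in part on dim values. The other large falls were Rbp7, a retinoid-binding protein (-1.95), Ceacam2, an adhesion molecule (-1.85), the prolactin family gene Prl2c1 (-1.80), the kinase Sgk2 (-1.79) and Cideb, a lipid droplet protein (-1.75). Serpinb1a, an inhibitor of neutrophil proteases, read 1.55, 1.94, 1.75 and 1.57 in the Siva arrays, against 3.44, 3.43 and 3.48 in controls, so that it fell by 1.75 (SE 0.14, adjusted p = 0.00247). Ffar4, Aass, Cyp2c66, Tmigd1 and Serpinb1a kept their call whichever array was left out. Cyp2c29 kept its call too, but it passed the filter only through the controls, so that this adds no support. Without shLacZ replicate 1 the adjusted p was 0.0577 for Cyp2c65, 0.173 for Itih5, 0.18 for Rbp7, 0.172 for Sgk2, 0.103 for Odf3l1, 0.077 for Lmo3 and 0.0664 for Cideb. Without shGFP it was 0.175 for Ceacam2 and 0.134 for Prl2c1.

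Whether the hairpins agreed was tested by setting them against each other. shSiva2 and shSiva1 differed at 4016 genes (17.8%), 1865 higher (8.25%) and 2151 lower (9.52%) with shSiva2. With median scaling these were 1176 and 2288, and the median of all genes lay at 0.11 with shSiva2 minus shSiva1. Without shSiva2 replicate 1 the count was 1863 and without shSiva2 replicate 2 it was 1942. Of the 754 genes called in the pooled comparison, 101 (13.4%) also differed between the hairpins, 74 of the 424 that rose and 27 of the 330 that fell. The background share of such genes is the 17.8% just given, and the pooled call itself asks for a small spread within the Siva arm. Timp3 was one of these, higher with shSiva2 by 2.12 (adjusted p = 0.00019), and Ccn4 was another, at -2.49 with shSiva2 relative to shSiva1 (adjusted p = 0.00035).

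A second view gave each Siva hairpin a control of its own, so that the comparisons shared no array. Both came from 1 fit with 1 spread per gene for all groups, so a gene with a small spread is more easily called in both. The lists are therefore not independent, and their overlap is no separate check of the hairpins. shSiva1 against shLacZ called 3107 genes (13.7%), 1783 higher (7.89%) and 1324 lower (5.86%), or 2035 and 831 with median scaling. shSiva2 against shGFP, which had 1 array, called 973 (4.31%), 614 higher (2.72%) and 359 lower (1.59%). In both lists and in the same direction were 390 genes, 12.6% of the shSiva1 list and 40.1% of the shSiva2 list. In both lists but in opposite directions were 119 genes, 3.83% of the shSiva1 list and 12.2% of the shSiva2 list. Across the 22594 genes in both, the correlation of the changes was 0.28, a description only, since genes are not independent replicates and the Siva arrays share a slide. The shSiva1 list held 2014 genes without shLacZ replicate 1, and without shSiva2 replicate 1 the shSiva2 list held 613.

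**Figure D3:**
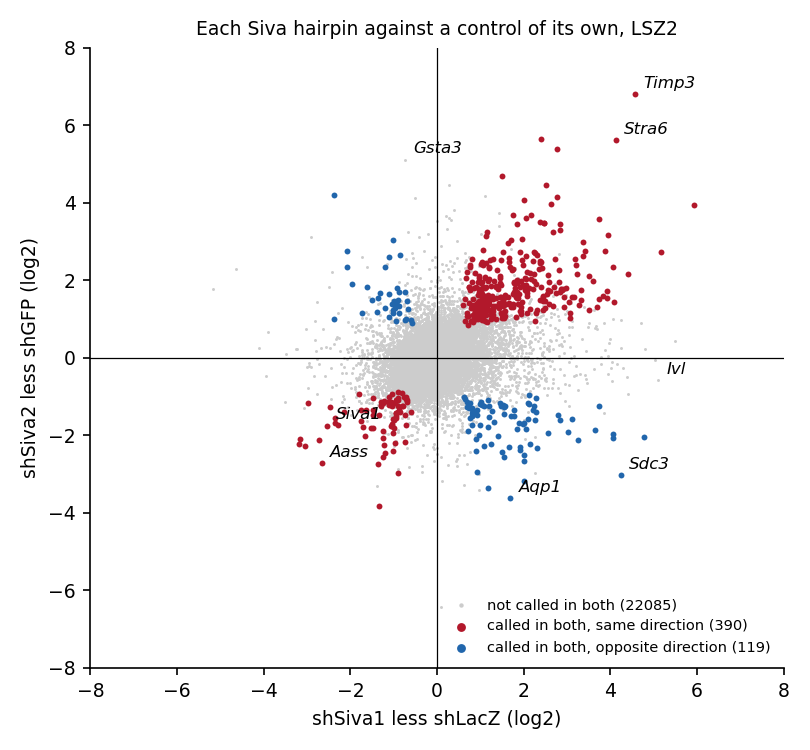
Change of each gene in LSZ2 with shSiva1 minus shLacZ (horizontal, log2) and with shSiva2 minus shGFP (vertical, log2), comparisons that share no array. Red marks the 390 genes called in both in the same direction, blue the 119 called in both in opposite directions, and grey the rest. Timp3 and Stra6 lie at the upper right, Sdc3 and Aqp1 at the lower right.

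Some genes moved strongly with 1 hairpin and not with the other, or moved in opposite directions. Aqp1, a water channel of lung and other epithelia (mm9 chr6:55298480-55298539), read 5.89 and 6.33 with shSiva1 and 0.96 and 0.74 with shSiva2, against 4.47 with shGFP and 4.24 and 4.59 with shLacZ. The controls lay between the hairpins, which were on opposite sides of them. Aqp1 was 1.67 above controls with shSiva1 (adjusted p = 0.00074) and changed by -3.58 with shSiva2 (adjusted p = 8.3e-05). Sdc3, a heparan sulphate proteoglycan (mm9 chr4:130382015-130382074), read 1.52 and 2.16 with shSiva1 and -5.20 and -5.22 with shSiva2, against -2.18, -2.59 and -2.19 in controls. On neither shSiva2 array was it above background, which makes it at least 126-fold lower with shSiva2 than with shSiva1 (adjusted p = 1.2e-05). The calcium-binding protein S100b (4.45 with shSiva1, -1.37 with shSiva2), Ptgds, a prostaglandin D synthase (3.39 and -2.13), and the natural killer receptor gene Klrc1 (1.89 and -2.97) also split, S100b being above background on 1 of the 2 shSiva2 arrays.

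Other genes moved mostly with shSiva1, and each passed the test of the hairpin difference. Ivl, involucrin of the cornified envelope, read 0.70 and 0.45 with shSiva1 and -4.92 and -4.80 with shSiva2, against -4.28, -4.32 and -4.72 in controls. It rose by 5.02 with shSiva1, and the hairpins differed by -5.44 (adjusted p = 1.2e-05). Chrna1, a subunit of the muscle acetylcholine receptor, rose by 5.17 with shSiva1 and changed by -0.31 with shSiva2. Smoc2, a matrix protein, was on no control array above background and was at least 38-fold higher with shSiva1 (adjusted p = 0.00014). Degs2, a ceramide enzyme, Lrrc26, a potassium channel subunit, and the cytochrome P450 gene Cyp2s1 fell by 3.70, 3.4 and 3.20 with shSiva1. With shSiva2 Degs2 and Cyp2s1 were not called (0.26 and -0.50), and Lrrc26 fell by 1.35.

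With shSiva2 the glutathione transferase gene Gsta3 (mm9 chr1:21255189-21255248) stood out, at 1.08 and 0.58, against -4.34 and -3.99 with shSiva1, -4.29 with shGFP and -3.42 and -3.43 with shLacZ. Both shSiva2 arrays were high and the shSiva1 arrays lay near or below the controls. The difference between hairpins was 4.99 (adjusted p = 6.6e-05). Klhl30 rose by 4.59 with shSiva2 and by 1.54 with shSiva1, and the hairpins differed (3.05, adjusted p = 6.6e-05). Prr5l, a partner of the mTOR complex, was at least 20.6-fold higher with shSiva2 (adjusted p = 3.3e-05) and at least 1.62-fold higher with shSiva1 (adjusted p = 0.00076). Alpi, the intestinal alkaline phosphatase, fell by 3.62 with shSiva2 and by 1.44 with shSiva1 (hairpin difference -2.18, adjusted p = 0.00087). Rufy4 and Glod5 fell by 3.21 and 3.17 with shSiva2 and changed by 0.13 and -0.48 with shSiva1, and Rufy4 was above background on 1 of the 2 shSiva2 arrays.

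The difference between the hairpins ran the same way in LSZ4, which gives other arrays of the same hairpins on the same slide. Each hairpin lay in the same row as in LSZ2, so that row and hairpin cannot be told apart there either. Of the 4016 genes, 3884 (96.7%) had the same sign in LSZ4. The share of all genes with the same sign in both lines was not counted, so the 96.7% sets the called genes apart from no others. Of the 4016, 1046 (26.0%) were called in LSZ4 in that direction, while 2 were called in the opposite one. In LSZ4 the hairpins differed at 1167 genes (5.16%), of which those 1046 are 89.6%. With shSiva2 minus shSiva1, Aqp1 was at -5.26 in LSZ2 and -8.14 in LSZ4, and Degs2, above background on 1 of the 2 shSiva1 arrays of LSZ4, at 3.96 and 7.44. In LSZ4 Sdc3 and Ivl were above background on both shSiva1 arrays and on neither shSiva2 array, and Gsta3 on both shSiva2 arrays and on neither shSiva1 array, so that no size is given for them there. For Timp3 the difference was 2.12 in LSZ2 and 0.26 in LSZ4. The correlation over 22602 genes was 0.78, again across genes and as a description.

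**Figure D4:**
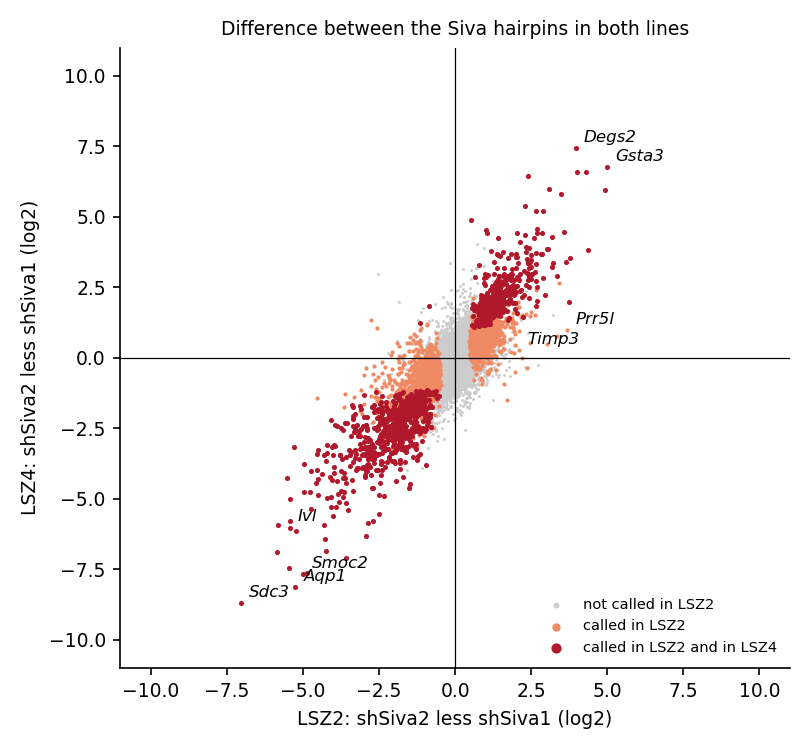
shSiva2 minus shSiva1 for each gene in LSZ2 (horizontal, log2) and in LSZ4 (vertical, log2). Orange points were called in LSZ2 and red points in both lines. Aqp1 lies at -5.26 and -8.14, Degs2 at 3.96 and 7.44. Where a probe was dim with 1 hairpin, as for Sdc3, the point is a fitted difference and no fold.

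Genes linked to p53 and cell death were tested as lists. Of 42 p53 target genes 4 rose and 0 fell in the pooled comparison, where 1.88% of all genes rose and 1.46% fell, with a median of 0.26 against -0.02 for all genes. Gadd45a, a stress gene that acts in DNA repair and growth arrest, read 1.08 and 1.59 with shSiva1 and 0.89 and 0.99 with shSiva2, against -1.05 with shGFP and -0.96 and -0.84 with shLacZ. All Siva arrays lay above all controls (2.09, SE 0.19, adjusted p = 0.00347), and the hairpins were not called different (-0.40, adjusted p = 0.2). The phosphatase Ptp4a3 rose by 1.25 (adjusted p = 0.0144; 0.0852 without shLacZ replicate 1), the peptide transporter gene Tap1 by 1.42 and the death receptor Fas by 0.83 (adjusted p = 0.0301), and without shGFP the adjusted p of Fas was 0.14. With shSiva1 alone 11 rose and 1 fell (10.5% and 10.3% of all genes), and with shSiva2 alone 9 rose and 0 fell (5.34% and 5.62% of all genes), among them Ak1 (1.59) with shSiva1 and Sulf2 (1.98) with shSiva2, both named after their values were seen. Among 15 known partners of Siva1, Tnfrsf18, the receptor GITR, fell by 1.14 (adjusted p = 0.0212; 0.103 without shLacZ replicate 1) and the rest were not called. Fas was the 1 gene called among 35 of the Bcl-2 family, caspases and death receptors, where Bid changed by 0.80 (adjusted p = 0.0606). Of 50 mTOR pathway genes the inhibitor Deptor fell by 1.56 (SE 0.18, adjusted p = 0.00612) and 0 rose. The other Deptor probe changed by 0.22, and with the mean of both Deptor was not called (-0.67, adjusted p = 0.178). In the same list Ddit4l changed by 2.20 (adjusted p = 0.0586).

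Of 44 interferon-stimulated genes tested, 6 rose and 1 fell in the pooled comparison, where 1.88% of all genes rose and 1.46% fell. With shSiva1 alone 22 rose and 2 fell, where 10.5% and 10.3% of all genes did, and with shSiva2 alone 11 rose and 2 fell, where 5.34% and 5.62% did. Set against each other, shSiva2 was lower than shSiva1 at 11 of them and higher at 1, where 9.52% of all genes were lower and 8.25% higher. Tap2, a subunit of the transporter that feeds peptides to class I molecules (mm9 chr17:34353116-34353175), read 2.22 and 2.84 with shSiva1 and 2.54 and 2.46 with shSiva2, against -0.23 with shGFP and 0.60 and 0.64 with shLacZ. The hairpins overlapped (2.18, SE 0.25, adjusted p = 0.00654). Psmb9, a subunit of the immunoproteasome, rose by 2.07 (adjusted p = 0.0045) and Tap1, the partner of Tap2, by 1.42 (adjusted p = 0.0154; 0.0815 without shLacZ replicate 1). The GTPase Ifi47 rose by 1.11, the RNA sensor Ifih1 by 1.27 and Irgm2 as above, and Oasl1, an OAS-like gene, changed by -1.16 (adjusted p = 0.0485; 0.18 without shLacZ replicate 1). Without that array the adjusted p of Ifi47 was 0.129, and without shGFP that of Ifih1 was 0.135. Raet1e, a ligand of the receptor NKG2D in the list of class I antigen presentation, rose by 1.16 (adjusted p = 0.0296; 0.141 without shLacZ replicate 1), and that list had 4 of 24 higher and 0 lower, Tap1, Tap2 and Psmb9 being in both lists. The antiviral genes Oas1a (3.92 with shSiva1, 0.62 with shSiva2), Usp18 (2.26 and 0.23) and Ddx58 (2.06 and 0.01), named after their values were seen, differed between the hairpins (adjusted p = 0.00055, 0.00043 and 0.0003).

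The Irgm2 promoter is shown because it holds the letters of both classical interferon elements close to the start. Capitals mark TTCNNNGAA, the letters known to be bound by STAT dimers, 75 bases before the start, and the core of the interferon-stimulated response element, GAAA and again GAAA after 2 other bases, 64 bases before it. The sequence is RefSeq's, GRCm38.p6 chr11:58214727-58214976, plus strand, the 250 bases before the start.
Irgm2 promoter: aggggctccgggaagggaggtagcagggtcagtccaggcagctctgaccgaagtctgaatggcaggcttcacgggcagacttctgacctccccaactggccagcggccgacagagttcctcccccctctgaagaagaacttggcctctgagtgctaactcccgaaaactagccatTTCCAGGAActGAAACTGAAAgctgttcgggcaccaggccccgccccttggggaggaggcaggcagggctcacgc
On either strand, the response element core was in 2.98% of the 32851 mouse promoters of this length and TTCNNNGAA in 7.02%. Of the 44 interferon genes tested 32 had a promoter in the table, of which 12 (37.5%) held the core and 11 (34.4%) TTCNNNGAA. A match describes the letters and says nothing of binding.

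Some matrix, protease and TGF-beta genes were called, most of them higher, and most members of the 3 lists were not called. Among 31 genes of matrix and mesenchyme, 5 were called higher and 0 lower, of 26 matrix proteases and inhibitors 4 rose and 1 fell, and of 35 TGF-beta and BMP genes 3 rose and 0 fell, where 1.88% of all genes rose and 1.46% fell. The medians were 0.27, 0.63 and 0.23. Thbs1, thrombospondin, read 1.47 and 1.61 with shSiva1 and 1.29 and 1.45 with shSiva2, against -2.10 with shGFP and -0.97 and -0.86 with shLacZ. The Siva arrays were close together and shGFP was the lowest array (2.77, SE 0.29, adjusted p = 0.00453). Ccn1, another matricellular protein, rose by 1.93 (adjusted p = 0.0035), N-cadherin, Cdh2, by 1.90 (adjusted p = 0.0171; 0.0835 without shLacZ replicate 1), and Timp3 and Ccn4 as above.

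Tgfb3 and Tgfb2, TGF-beta ligands, rose by 2.94 and 2.68 (adjusted p = 0.0177 and 0.0284) and were higher with shSiva2 than with shSiva1 by 1.55 and 1.69 (adjusted p = 0.0024 and 0.00041). The ligand Bmp7 rose by 1.98 and was lower with shSiva2 than with shSiva1 (-1.05, adjusted p = 0.011). Adam12 and Adam8, membrane proteases, rose by 1.35 and 1.27, while Serpinb1a fell as above. Serpinb9, an inhibitor of granzyme B, rose by 1.48 and Serpinh1, a collagen chaperone, by 1.12. The 3 ligands, Adam12, Adam8, Serpinb9 and Serpinh1 each lost their call whichever of the 3 controls was left out. Bmp7, Adam12, Adam8 and Serpinb9 also lost it without 1 of the shSiva1 arrays. Without shLacZ replicate 1 the adjusted p was 0.0897 for Tgfb3, 0.112 for Bmp7, 0.151 for Adam12, 0.131 for Serpinb9 and 0.129 for Serpinh1. Without shGFP it was 0.122 for Tgfb2 and 0.134 for Adam8. Against the controls with shSiva1 alone 13 matrix genes rose and 2 fell (10.5% and 10.3% of all genes), and with shSiva2 alone 9 rose and 5 fell (5.34% and 5.62% of all genes). shSiva2 was lower than shSiva1 at 14 and higher at 5 of the 31, where 9.52% of all genes were lower and 8.25% higher. Col5a1, a fibrillar collagen chain named after its values were seen, was 2.27 with shSiva1 and -1.39 with shSiva2 (hairpin difference -3.66, adjusted p = 4.1e-05).

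Few secreted signals and inflammatory genes were called in the pooled comparison, where 1.88% of all genes rose and 1.46% fell. Of 34 chemokines, cytokines and growth factors 2 rose and 0 fell in the pooled comparison: Wnt7b, a lung Wnt ligand, by 1.65 (SE 0.15, adjusted p = 0.00351) and the chemokine Ccl25 by 1.12 (adjusted p = 0.00814; 0.0694 with the mean of all its probes). With shSiva1 alone 15 rose and 2 fell (10.5% and 10.3% of all genes), and with shSiva2 alone 5 rose and 4 fell (5.34% and 5.62% of all genes). shSiva2 was lower than shSiva1 at 13 and higher at 3, where 9.52% of all genes were lower and 8.25% higher. Among them, and named after their values were seen, the monocyte chemokine Ccl2 was 3.42 with shSiva1 and -0.65 with shSiva2, Csf2, the growth factor GM-CSF, 2.83 and -0.24, and Il1rn, the interleukin 1 receptor antagonist, -2.76 and 0.12. The hairpins differed at each (adjusted p = 4.1e-05 for all 3). Of 29 NF-kB targets 2 rose and 0 fell: Tnfaip3, a feedback inhibitor of the pathway, by 1.18 (SE 0.12, adjusted p = 0.00458), and the adhesion molecule Vcam1 by 1.90 (SE 0.25, adjusted p = 0.0112). Tnfaip3 changed by 1.12 with shSiva1 and 1.25 with shSiva2, and Vcam1 by 1.98 and 1.82. Among these 29 targets 11 rose and 3 fell with shSiva1 alone, and 3 rose and 2 fell with shSiva2 alone, beside the same shares of all genes.

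A few feedback genes of the MAPK pathway and early response genes were called in the pooled comparison, where 1.88% of all genes rose and 1.46% fell. Of 28 MAPK genes 3 rose and 0 fell: Spred3, a Ras pathway inhibitor, at least 1.59-fold (adjusted p = 0.0215), Errfi1, an inhibitor of the EGF receptor, by 0.70 and Dusp4, a MAP kinase phosphatase, by 0.73. Of 25 early response genes Dusp1, another such phosphatase, rose by 2.00 (adjusted p = 0.0141), Atf3 by 0.95 and Ccn1 as above, and the transcription factor Klf4 fell by 0.90. The hairpins differed for Dusp1, at 2.46 with shSiva1 and 1.54 with shSiva2 (adjusted p = 0.01). Without shLacZ replicate 1 the adjusted p was 0.077 for Dusp1, 0.187 for Dusp4, 0.146 for Errfi1 and 0.0915 for Klf4, and without shGFP it was 0.181 for Atf3 and 0.0999 for Spred3.

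Of 41 sphingolipid and phospholipid genes 5 rose and 0 fell in the pooled comparison, where 1.88% of all genes rose and 1.46% fell. Sphk1, Pla2g7 and Pitpnm3 were among them, as above. Ptgs1, the constitutive cyclooxygenase, rose by 2.77 (SE 0.30, adjusted p = 0.00528), and Galc, a lysosomal galactosidase, by 1.30 (adjusted p = 0.0127, or 0.077 without shLacZ replicate 1). Of 48 lysosome genes 4 rose and 0 fell, beside the same shares of all genes. Among them were the hydrolases Ctsh (1.13) and Gaa (0.85) and the cholesterol exporter Npc1 (0.64), and between the hairpins the adjusted p was 0.69 or more for these 3. Of 45 autophagy genes Wipi1, which marks forming autophagosomes, rose by 1.03 and Gabarapl1 by 1.0, and 0 fell. Without shLacZ replicate 1 the adjusted p was 0.103 for Ctsh, 0.21 for Npc1, 0.0835 for Wipi1 and 0.124 for Gabarapl1, and without shGFP it was 0.179 for Gaa.

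Glutathione and detoxification genes differed between the hairpins in part. Gstm2, a glutathione transferase, read 3.33 and 3.83 with shSiva1 and 3.41 and 3.4 with shSiva2, against 0.75 with shGFP and 1.20 and 1.36 with shLacZ. All Siva arrays lay above all controls, shSiva1 replicate 2 being the highest (2.39, SE 0.20, adjusted p = 0.00256). Gstm2 was the 1 gene called among 39 NRF2 targets in the pooled comparison, where 1.88% of all genes rose and 1.46% fell. With shSiva1 alone 4 rose and 7 fell, where 10.5% and 10.3% of all genes did, and with shSiva2 alone 9 rose and 1 fell, where 5.34% and 5.62% did. shSiva2 was higher than shSiva1 at 9 of the 39 and lower at 0, where 8.25% of all genes were higher and 9.52% lower. Besides Gsta3, and named after their values were seen, the carbonyl reductase Cbr3 was -1.84 with shSiva1 and 1.63 with shSiva2 (adjusted p = 0.00018), and Nqo1, a quinone reductase, -1.30 and 0.05 (adjusted p = 0.0036).

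Of 28 genes of gut differentiation 0 rose and 4 fell, where 1.88% of all genes rose and 1.46% fell, among them Cyp2c66, Cyp2c65 and the mucin Muc13 (-0.69, adjusted p = 0.033). Muc13 lost its call whichever array was left out (adjusted p up to 0.17). With shSiva1 alone 5 rose and 10 fell (10.5% and 10.3% of all genes), and with shSiva2 alone 3 rose and 8 fell (5.34% and 5.62% of all genes). Among 47 epithelial and junction genes, St14, a membrane serine protease, Krt23, a keratin, and the transcription factor Ehf rose by 1.32, 1.28 and 1.62. In that list 0 fell, and the shares of all genes are again 1.88% and 1.46%. The adjusted p was 0.0897 for St14 and 0.103 for Krt23 without shLacZ replicate 1, and without shLacZ replicate 2 it was 0.0632 for Ehf. Sox9, a progenitor factor in the lung list, rose by 1.03 (adjusted p = 0.032; 0.142 without shGFP). In the hypoxia list Egln3, an oxygen sensor, and Plod2, a collagen lysyl hydroxylase, fell by 1.29 and 0.67 among 32 (adjusted p = 0.0133 and 0.0459). Without shLacZ replicate 1 these were 0.0852 and 0.198, and Plod2 lost its call whichever array was left out.

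Growth, respiration and translation lists held few or no calls in the pooled comparison, where 1.88% of all genes rose and 1.46% fell. In the pooled comparison 0 genes were called among 50 of DNA replication, 44 of mitosis, 39 of ribosome biogenesis and Myc, 50 of the nuclear-encoded respiratory chain, 30 of glycolysis, 30 of the unfolded protein response and 28 of cholesterol synthesis. The largest median among these 7 lists in size was -0.21, for mitosis, where Kif11 changed by -0.86 (adjusted p = 0.168). Outside these, 1 of 35 ATF4 genes fell and 1 rose (Atf3, above), 2 of 38 amino acid genes fell (Aass, above, and Gldc) and 1 of 28 fatty acid genes fell. Aldh1l2, a mitochondrial folate enzyme of the ATF4 list, fell by 1.64 (SE 0.21, adjusted p = 0.00912, or 0.0627 without shLacZ replicate 1). Gldc of glycine breakdown fell by 0.63 and the desaturase Scd1 by 0.99 (adjusted p = 0.0471 and 0.0489). Gldc lost its call whichever array was left out (adjusted p up to 0.205). Scd1 lost its call in 6 of the 7 such fits (adjusted p up to 0.182).

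**Figure D5:**
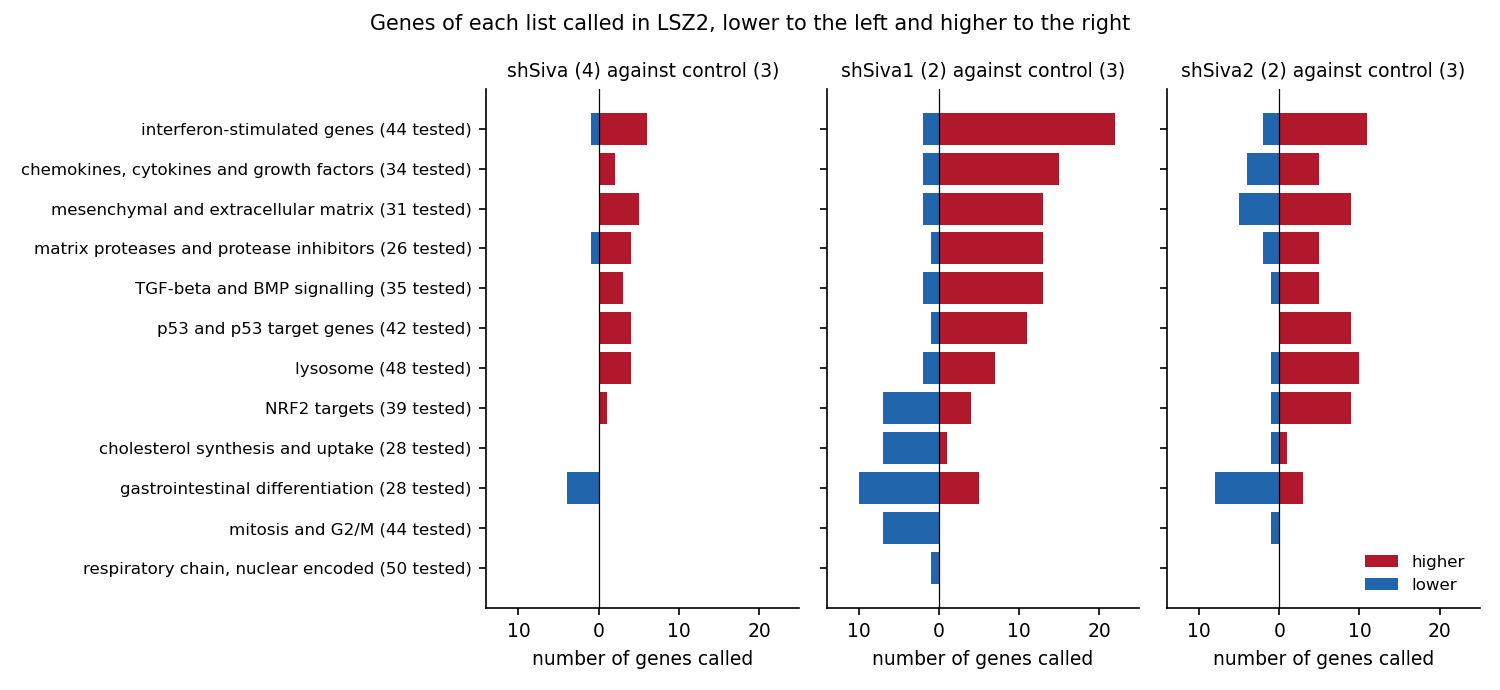
Number of genes called higher (red, to the right) and lower (blue, to the left) in 12 lists, for all Siva arrays, shSiva1 alone and shSiva2 alone against the same 3 controls. The interferon list has 22 higher with shSiva1 and 11 with shSiva2, and the NRF2 list 4 and 9.

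The control hairpins could be compared only as 1 array against 2. The median absolute difference over genes was 0.131 and 0.243 between shGFP and the shLacZ arrays, and 0.211 between those shLacZ arrays. shGFP against shLacZ called 16 genes (0.0708%), 7 higher (0.031%) and 9 lower (0.0398%), with 1 shGFP array taken to vary like the other groups, and 953 had an unadjusted p under 0.05. The Siva arrays called 1069 genes against shGFP (4.73%), 815 higher (3.61%) and 254 lower (1.12%). Against shLacZ they called 1958 (8.66%), 1133 higher (5.01%) and 825 lower (3.65%). Timp3 changed by 5.74 against shGFP and 5.63 against shLacZ, Sphk1 by 3.25 and 3.04, and Aass by -2.75 and -2.63.

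Set beside LSZ4, the effect of the Siva hairpins was not called different in LSZ2 at any gene in a fit with 1 mean per line and arm. That fit counts the difference between the hairpins as spread, so its lack of calls cannot show that the lines respond alike. Its test of the line difference called 0 of 22602 genes, while 512 had an unadjusted p under 0.05. The median difference, LSZ2 minus LSZ4, was 0.15. This test called 2 genes without LSZ4 shLacZ replicate 1, where 4093 had an unadjusted p under 0.05 and the median difference was 0.30. Without LSZ4 shLacZ replicate 2 it called 2 genes, and 403 had an unadjusted p under 0.05. The count thus moved alike without either LSZ4 shLacZ array, while the number with an unadjusted p under 0.05 rose only without replicate 1. A fit chosen after seeing the data that gave each Siva hairpin its own mean called 41. Of the 424 genes called higher in LSZ2, 405 were above controls in LSZ4 as well (95.5%, where 35.1% of all genes were), and of the 330 called lower, 318 were below (96.4%, where 64.9% of all genes were). In a fit of the LSZ4 arrays alone, which called 226 genes (1%), 135 of the 754 (17.9%) were called in the same direction. Timp3, above background on 1 of 4 LSZ4 controls, changed by 5.66 in LSZ2 and 7.94 in LSZ4, Sphk1 by 3.11 and 3.86, Aass by -2.67 and -2.20 and Siva1 by -2.17 and -2.80. Zfp185, at least 6.36-fold higher in LSZ2, was above background on 0 of the 8 LSZ4 arrays, and the line difference was not called (adjusted p = 0.432).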

How the data were processed

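The intensity of each spot comes from the authors' scanner output (Feature Extraction 10.7.3.1), as the headers state. The authors' deposited table of processed values is on a log2 scale. After subtraction of each probe's median over 15 arrays, 99.7% of the log2 values computed here lay within 0.01 of it. Here, control spots and outlier flags were left out, spots of a probe averaged, and the log2 processed signal reduced by each array's 75th percentile. Probes well above background on at least 3 of 7 arrays and missing on at most 1 were kept (31710), with the brightest per gene (22602 genes; 12 lacked a value on 1 array). Fits used limma 3.58.1 in R 4.3.3, with version 1.17.8 of data.table. Pooled arms were fitted alone; single hairpins came from fits with hairpin levels. On simulated data 52 of 67 changes of 1 and 11 of 67 changes of 0.5 on the log2 scale were called in the pooled comparison, with 5 false calls. Probe positions are mm9. Members and lists were chosen with earlier results of these data known. Named genes were Siva1, the 15 largest rises and falls with both hairpins moving alike, the 6 smallest p each way, the 4 largest each way of every other comparison, and each list's called members and 2 smallest p; other names are marked as chosen after their values were seen. Some genes that this rule picks are not reported here, though list counts include them. Replicate numbers were not taken to pair arrays, since the correlation of deviations was 0.464 for shSiva1 with shLacZ but -0.0679 for shSiva2 with shLacZ and -0.173 for shSiva2 with shSiva1. Alternatives covered scaling, background, filter, probe choice, blocks and array left out.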

Additional observations from a re-analysis of the deposited data

Results flagged for a closer look

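Within the 4 Siva arrays, 6 of the 136 values examined had 1 array far from the other 3, and chance marks about 1 in 20. Avp, above background on 1 of the 4 Siva arrays, read -3.82 on shSiva2 replicate 2 and -6.36 to -6.27 on the others. Ptp4a3 read -0.40 on shSiva1 replicate 1, where the others read 0.07 to 0.15. Pmvk read 5.17 on shSiva1 replicate 2, with the others at 4.54 to 4.6. Mxd1 read 0.23 on shSiva1 replicate 1 and 0.60 to 0.64 elsewhere. Gstm2 read 3.83 on shSiva1 replicate 2 and 3.33 to 3.41 elsewhere. Psmb9 read -1.44 on shSiva1 replicate 2, with the others at -2.08 to -1.99.

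The effect of the Siva hairpins differed between the lines for some genes in a fit, chosen after seeing the data, that gave control, shSiva1 and shSiva2 a mean each. It called 41 genes, and the ordinary symbols with the smallest p are named here after their values were seen. Flt1, a VEGF receptor, changed by 0.31 in LSZ2 and 2.51 in LSZ4, a difference of -2.20 (adjusted p = 0.0077). The homeobox gene Hoxa3 was above background on all 4 LSZ2 Siva arrays, on 0 of the 3 LSZ2 controls and on 0 of the 8 LSZ4 arrays. Its fitted difference of 2.55 (adjusted p = 0.0077) therefore rests on dim values and gives no fold.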

How the results depend on the processing

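Scaling, background correction, the authors' value table, the filter, the choice of probe, a mean-variance trend, blocks and arrays left out were varied. For the pooled comparison, 754 genes in the chosen setting, the count was 253 with no filter on dim probes, 283 with the hairpin as a random block, 219 in the LSZ2 contrast of a fit of all 15 arrays and 0 with 1 mean per hairpin, where Siva1 was -2.14 (adjusted p = 0.204). In fits chosen after seeing the data it was 3253 without both shSiva1 arrays and 3712 without both shSiva2 arrays. Leaving out 1 array gave 105 to 597 there, 2901 to 5347 for shSiva1 and 950 to 3253 for shSiva2 against control, 1863 to 4187 for shSiva2 against shSiva1, 931 to 2642 against shGFP, 1161 to 3011 against shLacZ, 2014 to 4224 for shSiva1 against shLacZ, 613 to 1868 for shSiva2 against shGFP and 0 to 2 for LSZ2 minus LSZ4. With no filter these comparisons called 3002 (shSiva1), 1166 (shSiva2), 2661 (shSiva2 against shSiva1), 411 (shGFP), 858 (shLacZ), 1896 (shSiva1 against shLacZ) and 239 (shSiva2 against shGFP). Normexp background gave 1761 against shGFP and 1515 for shSiva2 against shGFP. LSZ2 minus LSZ4 called 4 genes with quantile normalization and 41 with 3 levels per line, the second chosen after seeing the data. The causes were not tested.

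The replicate number as a block gave 405 genes in the pooled comparison and kept the other counts within 1.5 times (5239 for shSiva1, 2920 for shSiva2 and 4652 between the hairpins). Same-numbered arrays deviated together for shSiva1 with shLacZ and not for the pairs with shSiva2, so that the numbers were not taken to pair the arrays. Among the 85 genes that the naming rule picked 0 of 1768 values changed direction, which arrays left out could not turn. Of the 85, 81 kept their call with quantile normalization, 74 with normexp, 45 with no filter and 58 with the replicate block. With the hairpin as a random block it was 53, in the fit of all 15 arrays 45 and with 1 mean per hairpin 0. Of 700 list counts 238 moved by more than 1.5 times, fell to 0 or rose from 0. The number of arrays limits precision.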

Other observations

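Lists of cholesterol synthesis and cell division, which held no call in the pooled comparison, held some with single hairpins. Of 28 cholesterol genes 1 rose and 7 fell with shSiva1, where 10.5% of all genes rose and 10.3% fell, and with shSiva2 1 rose and 1 fell, where 5.34% rose and 5.62% fell. Insig1, a sterol sensor partner named after its values were seen, was -0.99 with shSiva1 and -0.01 with shSiva2, and the hairpins differed (adjusted p = 0.0088). Of 44 mitosis genes 0 rose and 7 fell with shSiva1, and 0 rose and 1 fell with shSiva2, while 2 were higher and 0 lower with shSiva2 than with shSiva1, so that most of either list was not called. Acta2, smooth muscle actin, was 0.15 with shSiva1 and 2.65 with shSiva2 (difference 2.50, adjusted p = 0.00071), while the mesenchymal marker Vim averaged 8.01 in Siva arrays and 8.10 in controls.

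Differentiation genes outside the pooled calls also took sides. Ctse, a gastric protease, was 2.27 with shSiva1 and -0.67 with shSiva2 (adjusted p of the difference 5.1e-05), and Lgals4, a gut lectin, was -1.69 and 0.06 (adjusted p = 0.00041). The lysosomal protease Tpp1 was -0.69 with shSiva1 and 0.87 with shSiva2 (adjusted p = 0.00038). These 3 were named after their values were seen.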
